A study of Mus musculus with 8 samples.

Results

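The myeloid C-type lectin receptors are surface proteins with which macrophages, monocytes and dendritic cells bind sugars and glycolipids. The genes described here are 10 of theirs, Clec4a1, Clec4a2, Clec4a3, Clec4b1, Clec4d, Clec4e, Clec4n, Clec7a, Clec10a and Mgl2. They were chosen by gene name, with earlier results of these data known. All 10 were found among the 26939 genes of the 3 count tables. The counts come from tumor-associated macrophages (TAMs) of EO771 tumors, a mouse mammary carcinoma line grown in C57BL/6J mice. Viable cells that carried CD45, CD11b and F4/80 but not Gr-1 were taken by flow sorting at day 21, from female mice of 8 to 14 weeks. The 4 groups, of 2 libraries each, were WT control, WT αMARCO, Unc93b1 3d/3d control and Unc93b1 3d/3d αMARCO. Unc93b1 3d/3d mice carry a mutated chaperone and lack signaling by the endosomal Toll-like receptors in every cell type, not in macrophages alone. αMARCO is a rat IgG1 antibody (clone ED31) against the scavenger receptor MARCO, given at 100 μg on day 3 and then every 3 days to day 12. Control libraries carry the word untreated in their titles and PBS in their library names, whereas the protocols name an isotype antibody. Which of these the control mice received is not settled. Each control library was pooled from 3 mice, and pooling of the αMARCO libraries is not given in the sources used here. The P values therefore measure the spread between 2 libraries per group.

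Several C-type lectin receptors signal by a shared route. Dectin-1 (Clec7a) binds β-glucans and signals through a tyrosine motif in its own tail, while Dectin-2 (Clec4n), Mincle (Clec4e), MCL (Clec4d) and DCAR (Clec4b1) pair with the Fc receptor γ chain. Both routes recruit the kinase Syk and the adaptor CARD9 and lead to NF-κB and cytokine genes. DCIR1 (Clec4a2) instead carries an inhibitory motif that recruits the phosphatases SHP-1 and SHP-2, and Clec4a1 and Clec4a3 encode its close relatives DCIR4 and DCIR3. MGL1 (Clec10a) and MGL2 (Mgl2) bind galactose and N-acetylgalactosamine and are widely used as markers of alternatively activated macrophages and of dendritic cells.

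The 7 Clec4 genes lie within 368 kb of chromosome 6 (GRCm38, 122921848 to 123289870), in the order Clec4a1, Clec4a3, Clec4b1, Clec4a2, Clec4n, Clec4d and Clec4e. All except Clec4e are on the plus strand. Clec7a lies 6172 kb farther along on the minus strand (129461591 to 129472779), and the count tables give it the biotype polymorphic pseudogene. Mgl2 (70130329 to 70137550) and Clec10a (70156197 to 70170834) are neighbors on chromosome 11, 18.6 kb apart. These genes arose by duplication, and reads from near-identical stretches can be assigned to either copy. In GENCODE transcripts, 13.1% of the distinct 50-base stretches of Mgl2 and 9.02% of those of Clec10a also occurred in another gene, mostly in each other. The share was 8.69% for Clec4b1, all of it shared with Clec4a2, and 6.83% for Clec4a2. It was 0.686% for Clec4n and 0% for Clec4a1, Clec4a3, Clec4d, Clec4e and Clec7a. Clec4a2 also contains the pseudogene Gm44132, which had at most 11 counts in a library.

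RefSeq promoter windows (GRCm38.p6, 250 bases before to 50 bases after a start) were matched for 8 of the 10 genes. The windows of Clec4b1, Clec4a1 and Clec4a3 are shown because these 3 genes had the largest fold changes between the control groups, and that of Clec4e because it was the receptor called higher after αMARCO. Capitals mark a motif match in Clec4b1 and Clec4e, and in Clec4a1 and Clec4a3 they mark the longest run of bases that the windows of any pair of these genes share. All 4 are written 5′ to 3′ on the strand of the gene. They lie at chr6:123049712-123050011 (plus), chr6:122921598-122921897 (plus), chr6:122952394-122952693 (plus) and chr6:123289822-123290121 (minus).
Clec4b1: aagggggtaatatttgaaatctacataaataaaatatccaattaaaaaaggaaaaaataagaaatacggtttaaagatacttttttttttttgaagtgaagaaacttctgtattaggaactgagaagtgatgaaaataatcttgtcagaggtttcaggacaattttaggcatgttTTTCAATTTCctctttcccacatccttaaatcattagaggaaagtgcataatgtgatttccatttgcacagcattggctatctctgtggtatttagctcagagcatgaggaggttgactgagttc
Clec4a1: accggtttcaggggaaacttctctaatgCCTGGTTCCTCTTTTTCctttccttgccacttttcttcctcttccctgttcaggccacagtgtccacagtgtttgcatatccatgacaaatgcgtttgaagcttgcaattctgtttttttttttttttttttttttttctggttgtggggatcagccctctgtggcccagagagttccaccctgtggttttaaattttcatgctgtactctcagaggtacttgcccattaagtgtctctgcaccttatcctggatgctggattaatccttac
Clec4a3: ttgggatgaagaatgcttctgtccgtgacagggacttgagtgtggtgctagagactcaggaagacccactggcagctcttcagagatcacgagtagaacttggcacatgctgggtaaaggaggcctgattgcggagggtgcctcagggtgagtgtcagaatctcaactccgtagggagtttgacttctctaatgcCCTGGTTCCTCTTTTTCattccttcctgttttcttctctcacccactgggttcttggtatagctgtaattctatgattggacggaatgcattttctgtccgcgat
Clec4e: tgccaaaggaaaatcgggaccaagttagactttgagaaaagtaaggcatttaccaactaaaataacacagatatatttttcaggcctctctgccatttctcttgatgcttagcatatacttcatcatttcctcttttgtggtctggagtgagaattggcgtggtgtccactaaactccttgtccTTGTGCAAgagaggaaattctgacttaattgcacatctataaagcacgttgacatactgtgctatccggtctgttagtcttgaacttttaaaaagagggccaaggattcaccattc

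Clec4a1 and Clec4a3 shared a run of 17 bases, against 7 to 12 bases for every other pair of windows from different genes. The Clec4a3 window shown belongs to a start that lies inside the gene. The other Clec4a3 window, at the annotated gene start (chr6:122952265-122952564), shared 8 bases with that of Clec4a1. The motifs searched, on both strands, were NF-κB (GGGA, any base, TTTCC), C/EBP (TTGCNNAA), AP-1 (TGANTCA), PU.1 (GAGGAAGT) and the interferon-stimulated response element, ISRE (TTTC, any pair of bases, TTTC). Clec4b1 held an ISRE match 75 bases before its start and Clec4d held one at its start, and 3.44% of the 32851 mouse windows held this motif. Clec4e held a C/EBP match 66 bases before its start, a motif found in 10.8% of all windows. An AP-1 match stood 31 bases after a start of Clec4a2, one that lies inside the gene, and 7.81% of all windows held AP-1. NF-κB and PU.1, found in 0.411% and 3.2% of all windows, had no match in the windows of these genes.

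The libraries held 15182618 to 26411936 counts, so that 3 counts, taken as the detection floor for counting error, equal 0.114 to 0.198 CPM. CPM are counts scaled to library size, with edgeR's TMM factors except in this floor and in sums named as raw. Every receptor was far above this floor, with 92 counts in Clec4b1 of an Unc93b1 3d/3d control library as the lowest value. Macrophage markers were strong throughout, with 11 of 11 above 3 counts in every library and a summed level of 13181 to 25828 CPM. Marco itself, the target of the antibody, had at most 0.942 CPM. Unc93b1 transcripts were present in all groups (539 to 965 CPM), and a transcript level does not read the 3d mutation. They were higher in WT control (848 and 965 CPM) than in mutant control (539 and 660 CPM). The log2 fold change was 0.58 (SE 0.12, adjusted P = 0.0125 from edgeR's quasi-likelihood test). In 1 control library of the mutant, the genotype field differs from the title by a character, and the title was followed. The 2 Unc93b1 3d/3d αMARCO libraries stood apart from each other: the median absolute log2 difference over 16620 genes was 0.536, against 0.147 to 0.202 in the other groups. Replicate 2 exceeded replicate 1 for 9 of the 10 receptors in that group, the exception being Clec4e. The median log2 difference of replicate 2 over replicate 1 was 0.53 for the receptors and −0.051 over all genes. Results that use this group are therefore also given without either library.

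Levels between genes were compared as CPM per kilobase of gene length. In WT control TAMs, Clec4a1 led with 419 ± 45.8 CPM per kb (SD, n = 2), followed by Clec4a3 with 408 ± 18.1, and these neighbors overlapped. Clec4n came next with 196 ± 14.9, then Clec4a2 with 144 ± 4.90. Clec7a and Clec4b1 overlapped in this order, as did Clec4d and Mgl2. The lower end was formed by Clec4e with 19.3 ± 3.38 and Clec10a with 13.4 ± 1.58 CPM per kb. In Unc93b1 3d/3d control TAMs the order was different at the top, where Clec4n led with 259 ± 30.9 CPM per kb, above Clec4a1 with 174 ± 19.9 and Clec4a3 with 132 ± 2.36. Mgl2, Clec4a2, Clec4d and Clec7a followed there without a gap between neighbors, and Clec4e overlapped with Clec10a. After αMARCO, Clec4a1 led in WT with 298 ± 0.048 CPM per kb and Clec4n in the mutant with 318 ± 72.9. Clec4b1 was the sixth of 10 in WT control TAMs with 92.6 ± 8.55 CPM per kb and the last in the mutant control with 7.95 ± 0.830. Summed over the 10 genes, raw counts as CPM were 2591 and 2499 in WT control and 1614 and 1725 in the mutant control. After αMARCO the sums were 1903 and 1959 in WT and 1883 and 2186 in the mutant, so that the treated groups lay between the control groups. The plot of CPM by library shows how this total divides.

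**Figure D1:**
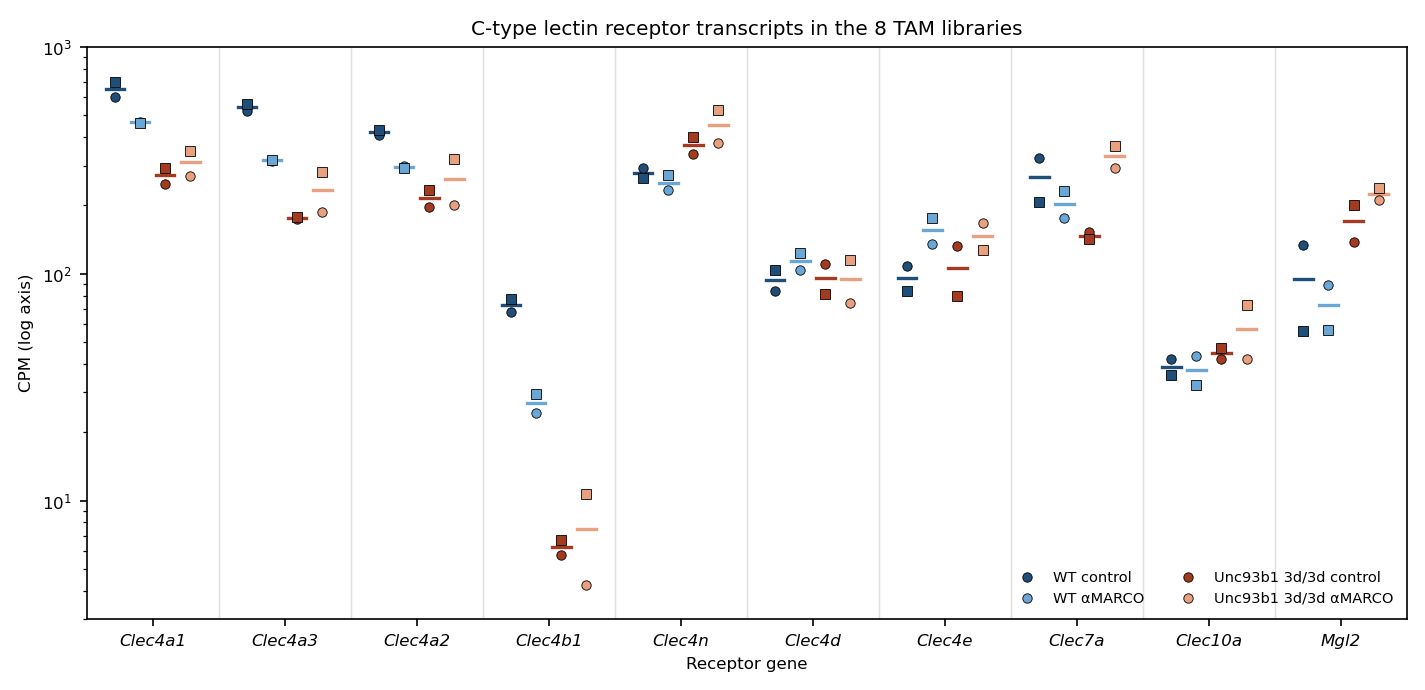
CPM of each receptor (log axis) in the 8 libraries. Circles are replicate 1, squares replicate 2 and short lines the group means of 2 libraries. Clec4a1, Clec4a3, Clec4a2 and Clec4b1 step down from WT control over WT αMARCO to the mutant control without overlap. The share of all genes with this order was not computed. In Clec4b1 the step is from 67.9 and 77.4 over 24.3 and 29.6 to 5.78 and 6.70 CPM. By group mean, Clec4n, Clec7a, Clec10a and Mgl2 instead are highest in the mutant αMARCO group. Only for Mgl2 do both libraries of that group exceed every other library.

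The first question was how the receptors differ between WT and Unc93b1 3d/3d TAMs without αMARCO. Of the 10 receptors, 5 were called higher in WT and 0 lower: the 4 genes of the DCIR and DCAR group, with Clec4b1 far ahead, and Clec7a. Over all 15600 genes tested, 6.58% were called higher and 6.4% lower in WT, 13% in all. Calls here and below are at an adjusted P of at most 0.05 (edgeR's quasi-likelihood test, Benjamini-Hochberg over all genes tested) and a log2 fold change of at least 0.5 in either direction. The groups did not overlap for 7 of the 10 receptors, nor for 63.1% of all genes.

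Clec4b1 (ENSMUSG00000030147), the activating receptor DCAR, had 67.9 and 77.4 CPM in WT control and 5.78 and 6.70 CPM in Unc93b1 3d/3d control. Every WT library was far above every mutant library. The log2 fold change was 3.52 (SE 0.14, adjusted P = 1.73e-06), an 11.5-fold difference. Clec4a3 (ENSMUSG00000043832), which encodes DCIR3, had 525 and 559 CPM in WT and 174 and 178 CPM in the mutant. The replicates lay close together and the groups far apart, at a log2 fold change of 1.61 (SE 0.10, adjusted P = 1.63e-05). Clec4a1 (ENSMUSG00000049037), which encodes DCIR4, had 603 and 704 CPM against 250 and 293 CPM, a log2 fold change of 1.25 (SE 0.12, adjusted P = 0.000294). Clec4a2 (ENSMUSG00000030148), the inhibitory DCIR1, had 411 and 431 CPM against 197 and 233 CPM. The lower WT library was still well above the higher mutant library, at a log2 fold change of 0.95 (SE 0.11, adjusted P = 0.000639). In the model of all 8 libraries Clec4a2 was no longer called (adjusted P = 0.0762, range over 6 alternatives 1.07e-16 to 0.0762).

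Clec7a (ENSMUSG00000079293), which encodes Dectin-1, had 326 and 207 CPM in WT control and 152 and 142 CPM in Unc93b1 3d/3d control. The groups did not overlap, but replicate 1 of WT stood well above replicate 2. This gave a log2 fold change of 0.84 (SE 0.21, adjusted P = 0.0483). This call was lost with DESeq2's size factors, with 10 counts required in every library and in the model of all 8 libraries (adjusted P from 3.75e-12 to 0.143 over 6 alternatives). It was also lost without WT control replicate 1, where the log2 fold change was 0.48, and without either mutant control library (adjusted P = 0.271 and 0.277).

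The 3 FcRγ-coupled genes at the far end of the block were not called. Clec4n (Dectin-2) had 294 and 264 CPM in WT and 337 and 399 CPM in the mutant. All WT libraries were lower than all mutant libraries, with a log2 fold change of −0.42 (SE 0.11, adjusted P = 0.0303) that was under the fold threshold, and it was called without mutant control replicate 1 (−0.53). Clec4d (MCL) had 83.8 and 104 CPM against 110 and 81.2 CPM, with overlap and a log2 fold change of −0.04 (SE 0.17). Clec4e (Mincle) had 108 and 84.0 CPM against 133 and 79.4 CPM, also with overlap, and a log2 fold change of −0.16 (SE 0.30). For the galactose-type lectins, Clec10a had 42.1 and 35.6 CPM in WT and 42.1 and 47.3 CPM in the mutant. Mgl2 had 134 and 56.2 CPM against 138 and 202 CPM, so that the WT replicates were farther apart than WT replicate 1 was from the mutant. Its log2 fold change of −0.85 (SE 0.58, adjusted P = 0.421) did not pass. Without WT control replicate 1 the log2 fold change of Mgl2 was −1.61 and was called (adjusted P = 0.0143).

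**Figure D2:**
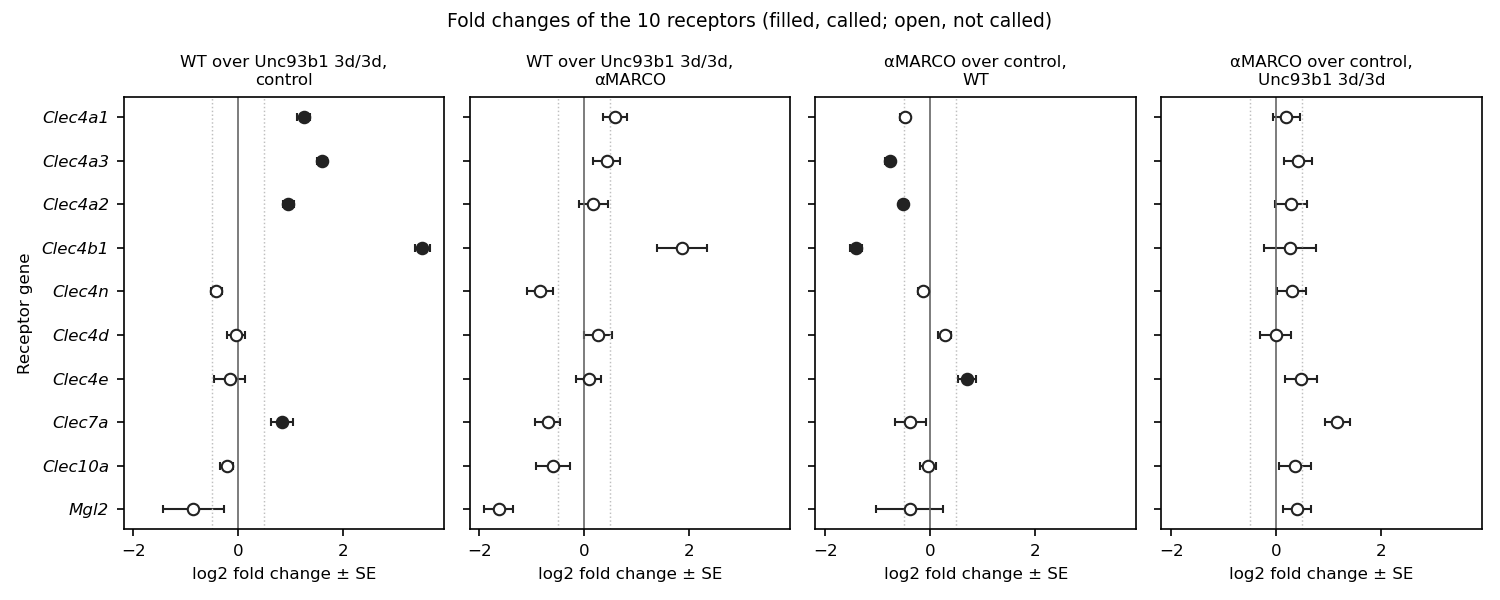
Log2 fold changes with their standard errors for the 10 receptors in the 4 comparisons, each from 2 against 2 libraries. Filled circles were called and dotted lines mark a log2 fold change of 0.5 in either direction. The 4 DCIR and DCAR genes and Clec7a are filled to the right in control TAMs, and Clec4e is the filled point on the right after αMARCO in WT.

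Along the chromosome, the 4 receptors called in the block are its first members, and the 3 that were not called are its last. Clec4a4, a DCIR relative that lies between Clec4a3 and Clec4b1 and was not among the 10 genes, had 3.42 and 2.83 CPM in WT and 1.13 and 1.01 CPM in the mutant. It was also called, at a log2 fold change of 1.53 (SE 0.38, adjusted P = 0.0228). Clec4b2, between Clec4a2 and Clec4n, had at most 9 counts in a library and was not tested. The plot of fold changes along the block sets the genes at their distances.

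**Figure D3:**
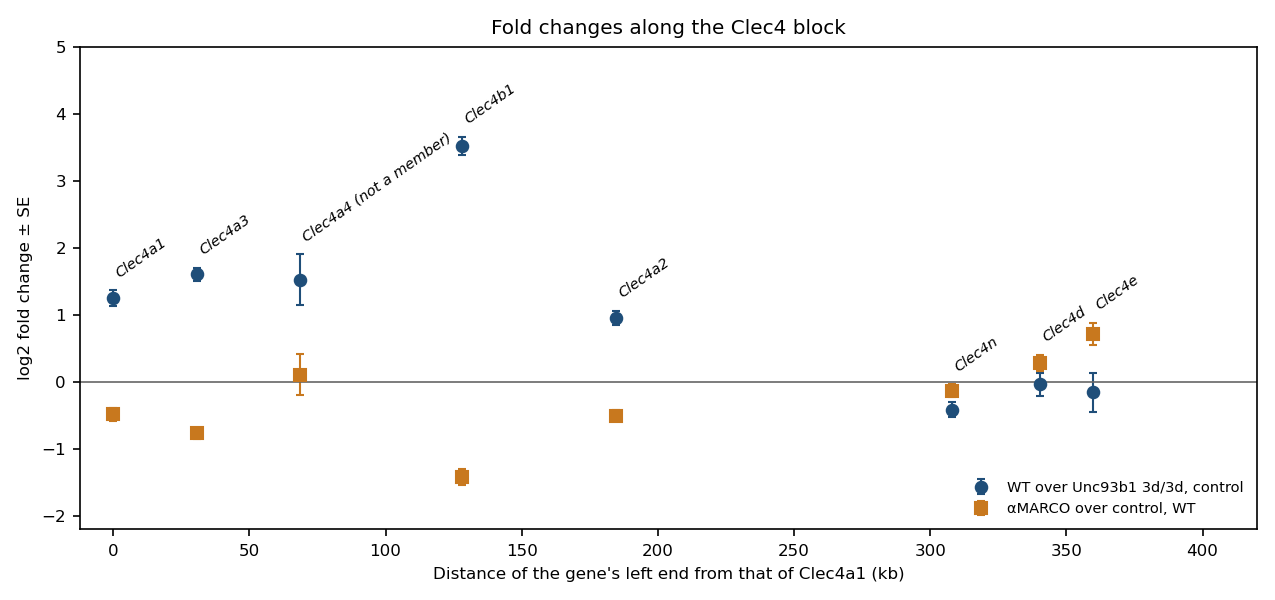
Log2 fold change with its standard error against the distance of each tested gene from Clec4a1, in kb. Circles compare WT with Unc93b1 3d/3d control TAMs and squares compare αMARCO with control in WT TAMs. The genes up to 185 kb, Clec4a1 to Clec4a2, have circles at 0.95 to 3.52, and those from 308 kb on, Clec4n to Clec4e, have circles from −0.42 to −0.04.

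Markers of other cells moved with the same comparison. In bulk libraries, a smaller share of a cell type and less RNA per cell cannot be told apart. Nonclassical monocyte markers were called higher in WT control for 5 of 10 genes and lower for 0, with summed levels of 1758 to 1766 CPM in WT and 527 to 679 CPM in the mutant. Mature dendritic cell markers were higher for 4 of 9 tested (554 to 1012 against 157 to 189 CPM), and type 2 conventional dendritic cell markers for 5 of 14 (2715 to 2787 against 2206 to 2549 CPM). T and NK cell markers, of cells that as a rule lack F4/80, were higher for 12 of 15 (140 to 156 against 14.6 to 32.7 CPM). B cell markers were higher for 2 of 5 tested, Cd79b and Ighm (112 to 161 against 28.7 to 29.9 CPM). Macrophage markers were called lower in WT for 4 of 11 and higher for 0, classical monocyte markers lower for 2 of 9, and type 1 conventional dendritic cell markers higher for 3 of 11. Epithelial and fibroblast markers were lower for 2 of 9 tested, mast cell and basophil markers lower for 1 of 4 and neutrophil markers higher for 1 of 9. Monocytes and dendritic cells themselves use several of the 10 receptors. The sort for F4/80 and against Gr-1 would remove monocytes and neutrophils that carry Gr-1 and dendritic cells that lack F4/80, and the part of these cells in the receptor differences was not tested.

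**Figure D4:**
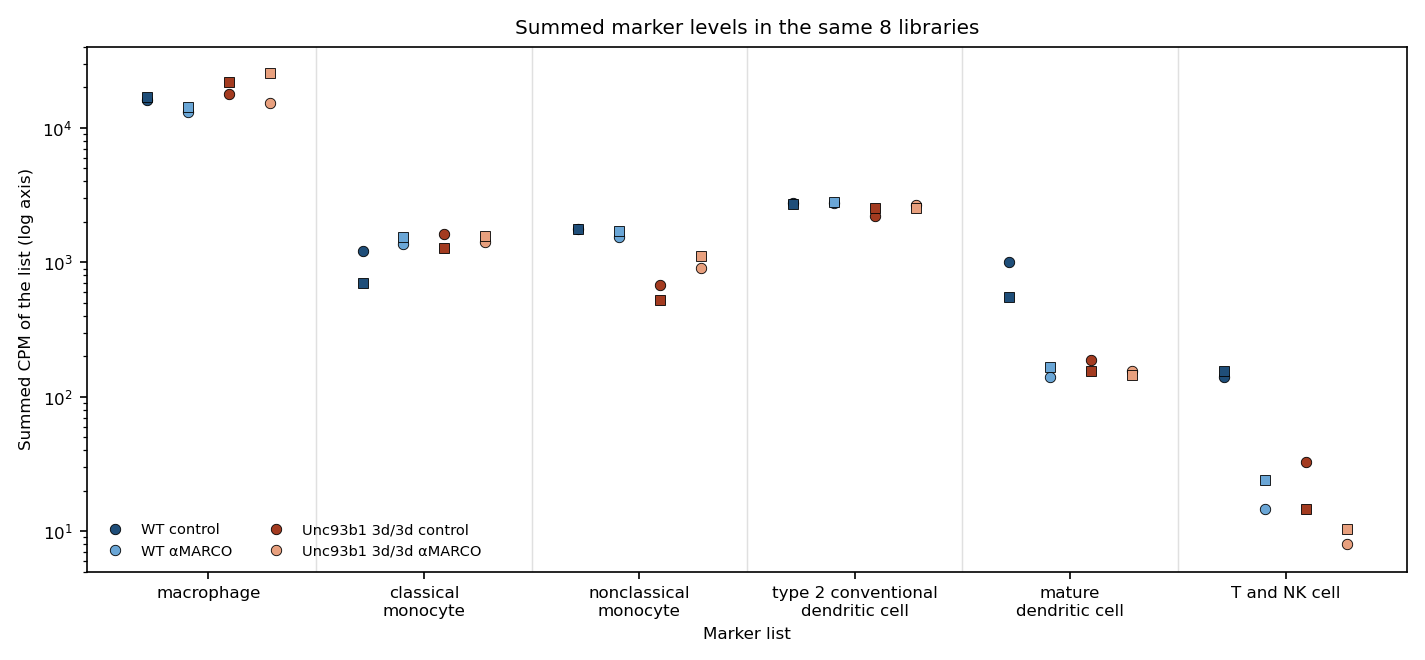
Summed CPM (log axis) of 6 marker lists in the 8 libraries, with circles for replicate 1 and squares for replicate 2. Mature dendritic cell and T and NK cell lists are highest in both WT control libraries, 554 to 1012 and 140 to 156 CPM. The sum of the nonclassical monocyte list is lower in both mutant control libraries than in every other library. Nr4a1 makes up most of this sum in the mutant, with 411 and 309 CPM in control and 662 and 918 CPM after αMARCO. The list as a whole did not rise there: its median log2 fold change after αMARCO in the mutant was −0.36, with 0 of 10 genes called.

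The second question was what αMARCO changed in WT TAMs. Of the 10 receptors, 4 were called: Clec4b1, Clec4a3 and Clec4a2 fell and Clec4e rose. Among all 15630 genes tested 20.7% were called, 8.91% higher and 11.8% lower. Treated and control libraries did not overlap for 5 receptors, nor for 70.9% of all genes.

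Clec4b1 had 24.3 and 29.6 CPM after αMARCO, well below the 67.9 and 77.4 CPM of the controls, and fell by 1.42 on the log2 scale (SE 0.12, adjusted P = 9.44e-05). Clec4a3 had 314 and 318 CPM after αMARCO and 525 and 559 CPM in control, with close replicates, and fell by 0.77 (SE 0.08, adjusted P = 0.000246). Clec4a2 had 298 and 293 CPM against 411 and 431 CPM. Its decrease of 0.51 (SE 0.08, adjusted P = 0.00149) lay at the fold threshold and was under it with DESeq2, with DESeq2's size factors, with 10 counts required in every library, and without WT control replicate 2 or WT αMARCO replicate 2. Clec4a1, with 465 and 465 CPM against 603 and 704 CPM, had a log2 fold change of −0.48 (SE 0.10, adjusted P = 0.00448), just under the threshold, and was called without WT control replicate 1 (−0.59). For all 4 genes, both WT αMARCO libraries lay below both WT control libraries and above both mutant control libraries. The share of all genes with this order was not computed. The comparison of control groups and that of αMARCO in WT also use the same WT control libraries.

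Clec4e, the Mincle gene, had 136 and 177 CPM after αMARCO and 108 and 84.0 CPM in control. It lies at the other end of the block from the genes that fell and rose by a log2 fold change of 0.71 (SE 0.17, adjusted P = 0.0234). Without WT αMARCO replicate 2 the value was 0.50 and not called (adjusted P = 0.0614). Clec4d, whose product pairs with Mincle, had 104 and 123 CPM against 83.8 and 104 CPM, a log2 fold change of 0.28 (SE 0.12, adjusted P = 0.110). Clec4n, Clec7a, Clec10a and Mgl2 had log2 fold changes of −0.14, −0.38, −0.04 and −0.39 with overlapping groups. Clec7a was called lower without WT control replicate 2 (−0.67). In the model of all 8 libraries 0 of the 10 receptors were called, with adjusted P values of 0.0929 for Clec4b1, 0.103 for Clec4a3, 0.214 for Clec4e and 0.249 for Clec4a2 and unchanged directions.

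Marker lists moved with αMARCO as well. Mature dendritic cell markers were called lower for 7 of 9 (140 to 167 CPM against 554 to 1012 in control), T and NK cell markers for 12 of 15 (14.5 to 24.2 against 140 to 156 CPM) and type 2 conventional dendritic cell markers for 6 of 14, with 1 higher. The summed level of this last list did not fall, at 2783 to 2836 CPM against 2715 to 2787 CPM, but Sirpa and Itgax make up most of it. Sirpa had 1682 and 1828 CPM in control and 1913 and 1952 CPM after αMARCO. Itgax had 588 and 596 CPM in control and 600 and 605 CPM after αMARCO. Zbtb46, among the markers called lower, had 28.5 and 14.7 CPM in control and 2.81 and 3.16 CPM after αMARCO. Nonclassical monocyte markers were lower for 5 of 10 and higher for 1, although their summed level was 1556 to 1725 CPM against 1758 to 1766 CPM in control. Within this sum Nr4a1, the marker called higher, had 749 and 862 CPM against 582 and 476 CPM in control. Cd300e, among those called lower, had 254 and 267 CPM against 557 and 616 CPM. Of the macrophage markers, 4 of 11 were lower (Adgre1, C1qa, C1qb and C1qc) and 1 higher, with sums of 13181 to 14384 CPM against 16149 to 16889 CPM. Type 1 conventional dendritic cell markers were lower for 4 of 11 (874 to 906 against 1154 to 1177 CPM), epithelial and fibroblast markers for 5 of 9 tested (55.0 to 67.1 against 134 to 204 CPM), neutrophil markers for 3 of 7, B cell markers for 1 of 6 (Cd79b) and mast cell and basophil markers for 1 of 3. Classical monocyte markers were higher for 2 of 9, Ccr2 and F13a1. The part of these cells in the receptor calls after αMARCO was not tested.

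A further question was how the genotypes differ under αMARCO. edgeR called 0 of 10 receptors and 0 of 15722 genes (0.0%), with 1076 genes and 5 receptors at an unadjusted P under 0.05, while DESeq2 called 214 genes, Clec4b1 and Mgl2 among them. The genotypes did not overlap for 6 of the 10 receptors, nor for 44.3% of all genes. Clec4b1 had 24.3 and 29.6 CPM in WT and 4.24 and 10.7 CPM in the mutant, every WT library being higher. The log2 fold change was 1.87 (SE 0.47, adjusted P = 0.549, range over 6 alternatives 0.00898 to 0.551). Mgl2 had 88.8 and 56.2 CPM in WT and 211 and 239 CPM in the mutant, the widest separation toward the mutant among the 10 genes. Its log2 fold change was −1.63 (SE 0.28, adjusted P = 0.336, range 9.21e-05 to 0.331 over 6 alternatives). Clec4n had 233 and 272 CPM against 379 and 525 CPM, a log2 fold change of −0.84 (SE 0.25). Clec7a, which was higher in WT among the controls, had 176 and 231 CPM in WT and 294 and 367 CPM in the mutant, a log2 fold change of −0.70 (SE 0.24, adjusted P = 0.699).

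These values rest on the 2 dissimilar mutant αMARCO libraries. Without replicate 1 of that group 4 receptors were called, Clec4b1 higher in WT and Clec4n, Clec7a and Clec10a lower, but that fit called 39.8% of all genes (6257 of 15722, either direction). Without replicate 2 the number was 6, with Clec4a1, Clec4a2, Clec4a3, Clec4b1 and Clec4d higher in WT and Clec4n lower, and 7.77% of all genes were called. Clec4b1 and Clec4n were called in the same direction both times, at 1.34 and 2.67 for Clec4b1 and −1.05 and −0.59 for Clec4n. In such fits the lone library is assumed to vary like the other group.

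In Unc93b1 3d/3d TAMs, αMARCO against control gave 0 of 10 receptors and 0 of 15428 genes (0.0%) with edgeR, with 744 genes and 1 receptor at an unadjusted P under 0.05. DESeq2 called 60 genes, including Clec7a. The groups did not overlap for 3 receptors, nor for 38.9% of all genes. Clec7a had 152 and 142 CPM in control and 294 and 367 CPM after αMARCO, so that both treated libraries were far above the controls. Its log2 fold change was 1.18 (SE 0.24, unadjusted P = 0.00265, adjusted P = 0.823, range 0.0142 to 0.828 over 6 alternatives), and it was called whichever treated library was left out, at 1.33 and 0.996. Clec4b1 had 5.78 and 6.70 CPM in control and 4.24 and 10.7 CPM after αMARCO, the treated libraries lying on either side of the controls. Clec4a1, Clec4a2 and Clec4a3 had log2 fold changes of 0.20, 0.29 and 0.42, with SEs of 0.26 to 0.30. Without treated replicate 1, 6 receptors were called higher after αMARCO (Clec4a2, Clec4a3, Clec4b1, Clec4n, Clec7a and Clec10a), in a fit that called 34.9% of all genes in either direction. Without replicate 2 it was Clec7a alone, with 2.11% of all genes.

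The difference between the αMARCO effects in WT and in mutant TAMs was tested in a model of all 8 libraries. edgeR called 0 of 10 receptors and 0 of 16620 genes (0.0%), with 2549 genes and 5 receptors at an unadjusted P under 0.05, and DESeq2 called 211 genes, Clec4a3 and Clec7a among them. The difference was −1.56 for Clec7a (SE 0.35, adjusted P = 0.310), −1.19 for Clec4a3 (SE 0.28, adjusted P = 0.314) and −1.66 for Clec4b1 (SE 0.51, adjusted P = 0.318). For 8 of the 10 receptors the difference was below 0, with a median of −0.74 against −0.04 over all genes. How many of all genes lie below 0 was not computed. As the receptors were chosen with earlier results of these data known, their median is not an independent comparison. Clec4d and Clec4e had differences of 0.29 (SE 0.35) and 0.23 (SE 0.39). Without mutant αMARCO replicate 1 the number called was 7, where 38.6% of all genes were called, and without replicate 2 it was 1, Clec4a3, where 3.53% were.

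The partners of these receptors were described from lists of genes. Among 22 adaptors and kinases, 6 were higher and 2 lower in WT control than in mutant control TAMs. Fcer1g, the Fc receptor γ chain on which Clec4b1, Clec4n, Clec4d and Clec4e depend, had 1275 and 1337 CPM in WT and 804 and 943 CPM in the mutant. All WT libraries were higher, at a log2 fold change of 0.56 (SE 0.11, adjusted P = 0.00930). Among the others, the Src-family kinases Fyn (1.28) and Fgr (0.97) and the exchange factor Vav2 (0.55) were higher on the log2 scale, and Src itself was lower (−0.75). Of 10 phosphatases and brakes, 4 were higher and 1 lower. Ptpn6, which encodes the SHP-1 that DCIR1 recruits, had a log2 fold change of 0.82 (SE 0.11, adjusted P = 0.00188). Ptprc, Cblb and Dok2 were higher by 0.53, 0.61 and 0.70 and the ubiquitin ligase gene Cbl had −0.63.

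Downstream, 6 of 13 transcription factor genes were higher and 1 lower in WT control. Nfkb1 (0.74), Relb (0.77), Rel (0.61), Irf1 (0.81) and Cebpd (0.65) were among those higher, and Nfatc2 had −0.61. Of 13 cytokine and enzyme outputs tested, 10 were higher and 0 lower, with a median log2 fold change of 0.89 against −0.0036 over all genes. This list was chosen with earlier results of these data known, so its median is not an independent comparison. Il12b, a subunit of IL-12 and IL-23, had 26.1 and 23.2 CPM in WT and 0.816 and 0.710 CPM in the mutant. Its log2 fold change was 4.99 (SE 0.23), and Il23a (1.86), Il6 (1.42), Cxcl1 (1.19), Il10 (0.96) and Ccl3 (0.90) followed. These outputs are also induced through Toll-like receptors, and their dependence on the receptors described here was not tested.

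After αMARCO in WT TAMs, the called partner genes numbered 0 higher and 1 lower of 22 adaptors and kinases, 1 and 0 of 10 phosphatases and brakes, 1 and 2 of 13 transcription factors, and 0 and 4 of 13 outputs. Fyn fell by 0.83 on the log2 scale, Cbl rose by 0.55, Cebpd and Relb fell by 0.63 and 0.51, and Egr3 rose by 0.84. The outputs that fell were Il12b (−3.40), Il23a (−1.39), Il6 (−1.10) and Cxcl1 (−0.90). Under αMARCO between genotypes, in the mutant, and for the difference of the effects, edgeR called 0 genes of any list.

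Other C-type lectin receptors were called in both directions. Of 30 tested between the control groups, 8 were higher and 3 lower in WT, with a median log2 fold change of 0.44. Clec12a, an inhibitory receptor for dead cells, had 220 and 274 CPM in WT and 53.7 and 69.3 CPM in the mutant, with no overlap and a log2 fold change of 1.99 (SE 0.15, adjusted P = 0.000222). Ly75 (DEC-205, 1.89), Klra2 (1.31) and Clec2g (1.13) were also higher, and Cd93 was lower (−1.16). After αMARCO in WT, 2 of 29 were higher and 6 lower. Clec12a fell by 1.05 and Ly75 by 3.53, while Cd93 rose by 0.97. Cd209c (−1.77), Mrc2 (−3.21) and Cd302 (−0.85) fell too. Of these, Mrc2 was low, with 1 and 1.94 CPM in control and 0.243 and 0.0771 CPM after αMARCO. The last value is under the detection floor.

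The likeness of patterns over the 8 libraries was measured as the root mean square difference of centered log2 CPM, among 16620 genes. Clec4a1 and Clec4a3 differed by 0.16, and each was among the 11 genes nearest to the other. Clec4a2 stood 0.19 from Clec4a1. Clec4b1, whose spread over the libraries was larger than that of 99.0% of genes, was nearest to Cd79b, a gene of the B cell list, and Siglece (0.34 each) and stood 0.91 from Clec4a3. Outside the 10 genes, the nearest were Lcp2 for Clec4a1 (0.07), Rac2 and Ptpn6 for Clec4a2 (0.10 and 0.11), Otud1 for Clec4a3 (0.14), Lyz2, the third, for Clec4n (0.12), Skint3 for Clec7a (0.06), Rab23 for Clec4d (0.11), Ormdl1 for Clec10a (0.10) and B3gnt7 for Mgl2 (0.19). For Clec4e, the gene Thbd was the third nearest (0.14).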

How the data were processed

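Bulk poly-A RNA of 8 TAM libraries was analysed, and the single-cell data were not used here. Per the labels, the authors used fastp for read cleaning, HISAT2 2.0.5 with GRCm38 for alignment and featureCounts 1.5.0 for counting. Strandedness of the counting is not given in the sources used here. The authors deposited raw counts per gene in 3 tables, each of 2 groups and limited to genes that reach 2 counts over the 4 libraries, and these were joined by gene identifier. Of 95230 counts present in more than 1 table, 0 differed, and 0 was entered where a table lacked a gene. The tables also hold the authors' size-factor-normalized counts and group means, FPKM, log2 fold changes and p-values, none of which were used.

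Counts were tested in R 4.3.3 with edgeR 4.0.16 (TMM, filterByExpr, robust quasi-likelihood fit, Benjamini-Hochberg over all tested genes), separately for the 4 libraries of each comparison, and in a model of all 8 for the difference between αMARCO effects. The thresholds for a call were those of the study, an adjusted P up to 0.05 together with a log2 fold change of 0.5 or more in either direction. CPM used TMM factors over 8 libraries, and log2 CPM a prior count of 2. Promoter windows were RefSeq's. On simulated data for the control genotype comparison, the procedure recovered 62 of 100 genes changed by 1 and 89 of 100 changed by 2 on the log2 scale. The simulated spread between libraries followed its trend with expression level, not the spread of each gene. Alternatives were DESeq2 1.42.0, its size factors, no filter, 10 counts in every library, a replicate block, all 8 libraries in 1 model, fold thresholds of 0 and 1, and each library left out. The receptors and all lists were chosen with earlier results of these data known. Named list genes were at most 6 called genes per list and comparison with the largest fold change and no overlap, and for likeness the 3 nearest genes, from which the text takes some. Genes of the adaptor and kinase list and of the macrophage list that enter their counts are not all reported here by name.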

Additional observations from a re-analysis of the deposited data

Results flagged for a closer look

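For 2 receptors, effects under the same contrast went in opposite directions in 2 groups, with no overlap between the libraries compared in either. The share of all genes that meet this rule was not computed. For αMARCO against control, the groups did not overlap for 70.9% of all genes in WT and 38.9% in the mutant. Between the genotypes they did not overlap for 63.1% in control TAMs and 44.3% under αMARCO. Clec4a3 had a log2 fold change of −0.77 after αMARCO in WT TAMs and of 0.42 in Unc93b1 3d/3d TAMs. The difference of these effects was −1.19 (SE 0.28, adjusted P = 0.314 from edgeR, 0.0258 to 0.319 over 5 alternatives). Clec7a had a log2 fold change of WT over mutant of 0.84 in control TAMs and of −0.70 under αMARCO, and the difference of effects was −1.56 (SE 0.35, adjusted P = 0.310 from edgeR, 0.00910 to 0.319 over 5 alternatives). Neither difference passed with edgeR, and both passed with DESeq2 and without a filter on low counts. Both rest in part on the mutant αMARCO libraries: without replicate 1 of that group the values were −1.45 and −1.71 and both were called, as were 38.6% of all genes. Without replicate 2 Clec4a3 was called at −0.84 and Clec7a was not, and 3.53% of all genes were called.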

How the results depend on the processing

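Between the control groups, 5 receptors were called, 3 with all 8 libraries in 1 model, 3 at a log2 fold change of at least 1, and 4 to 5 with a library left out. For αMARCO in WT the 4 calls became 0 in the model of all 8 libraries, 1 at the higher fold threshold and 2 to 5 with a library left out. The genotypes under αMARCO gave 0 receptors, 2 with DESeq2, 1 without a filter, and 0 to 6 with a library left out. αMARCO in the mutant gave 0, then 1 with DESeq2, 1 without a filter and 0 to 6. The difference of effects gave 0, then 2 with DESeq2, 2 without a filter and 0 to 7. The 6, 6 and 7 came from leaving out a mutant αMARCO library, replicate 2 in the first and replicate 1 in the others.

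No pairing of same-numbered replicates is described in the sources used here. Their deviations correlated at −0.077 to 0.135, which cannot decide whether they shared a batch. With the replicate block, 2 receptors, Clec4b1 and Mgl2, and 97 genes were called between the genotypes under αMARCO, against 0 and 0 without it. The block gave 5, 4, 0 and 0 receptors in the other comparisons, the same numbers as without it. Over all genes it called 15.4%, 19.7%, 0.0324% and 0% there, against 13%, 20.7%, 0% and 0% without it.

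Over all genes, the 2025 calls between the control groups became 364 in the model of all 8 libraries and 951 at the higher fold threshold, and the 3236 calls for αMARCO in WT became 164 and 1366. Genes called between the genotypes under αMARCO were 0, then 214 with DESeq2, 107 without a filter and 108 in the model of all 8. In the mutant they were 0, then 60, 174 and 1, with 5 under the block, and for the difference of effects 0, then 211 with DESeq2 and 152 without a filter. With a library left out, these counts ranged over 1415 to 1720, 1829 to 3751, 6 to 6257, 1 to 5387 and 0 to 6416 in this order of comparisons. Without a fold threshold, 2929 and 5487 genes were called in the first pair of comparisons.

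Leaving out a library turned the sign of receptors that were not called. Between the control groups the range was −0.25 to 0.20 for Clec4d and −0.49 to 0.26 for Clec4e. Under αMARCO it was −0.12 to 0.55 for Clec4a2, −0.0099 to 0.61 for Clec4d and −0.12 to 0.30 for Clec4e. For αMARCO in WT it was −0.26 to 0.16 for Clec10a and −0.88 to 0.37 for Mgl2. For αMARCO in the mutant it was −0.011 to 0.38 for Clec4a1, −0.10 to 0.59 for Clec4a2, −0.56 to 0.79 for Clec4b1, −0.36 to 0.28 for Clec4d and −0.090 to 0.71 for Clec10a. For the difference of effects it was −0.19 to 0.55 for Clec4e and −0.74 to 0.070 for Clec10a.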
